A study of Mus musculus with 15 samples.

Results

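The genes described here are Ly6a, Ly6c1, Ly6c2 and Ly6e, which encode small surface proteins of the Ly6 family, in Foxp3-positive regulatory T cells (Tregs). They were taken by name from the table of raw counts, where 4 of 45706 genes match, and all 4 passed the filter on low counts. Tregs were sorted through a Foxp3 reporter from the spleen, the thymus and the peritoneal cavity (PEC) of adult mice, and their RNA was sequenced in bulk in 15 libraries. The mice were of the line RelB-dDC (dDC from here on) or were littermate controls, all bred onto the Foxp3 reporter line and labelled C57BL/6. Control groups held 3 libraries for spleen, 3 for thymus and 2 for PEC, and the dDC groups held 3, 2 and 2. The line is read here as mice lacking RelB, an NF-kappaB subunit, in dendritic cells. The sources used here do not name the driver of that deletion. The labels do not say whether a library came from 1 mouse or from a pool, so p-values measure the spread between these libraries, which may be technical in part.

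Ly6 proteins share a compact fold held by disulfide bonds and are mostly held in the outer membrane by a glycosylphosphatidylinositol (GPI) lipid anchor, without a cytoplasmic tail. Ly6a is the stem cell antigen Sca-1, also found on activated T cells. Ly6c1 and Ly6c2 together make the antigen Ly6C, which marks monocytes, plasma cells, endothelium and subsets of T cells. On Tregs, Ly6C is known as a marker of less activated cells. Ly6e was first described as a thymic antigen shared by immature thymocytes and is widely expressed. Ly6a, Ly6c and Ly6e genes are known to respond to interferons.

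The 4 genes lie close together on mouse chromosome 15 (mm10, coordinates of the deposited table). Ly6e (ENSMUSG00000022587) spans chr15:74955051-74959905 on the plus strand. Ly6a (ENSMUSG00000075602) spans chr15:74994877-74998031, Ly6c1 (ENSMUSG00000079018) chr15:75044018-75048830 and Ly6c2 (ENSMUSG00000022584) chr15:75108158-75111970, all on the minus strand. No other annotated gene has exons that overlap theirs in GENCODE M21. The coding sequences of Ly6c1 and Ly6c2 have 393 bases each and differ at 9 of them, an identity of 97.7 percent. Of these 9 differences, 6 fall in the first 120 coding bases, which are shown for that reason. The untranslated parts of the pair were not aligned. Capitals mark the bases at which the pair differs.
Ly6c1 coding start: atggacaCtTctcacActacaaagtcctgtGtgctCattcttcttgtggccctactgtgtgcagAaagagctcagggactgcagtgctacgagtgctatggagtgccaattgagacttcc
Ly6c2 coding start: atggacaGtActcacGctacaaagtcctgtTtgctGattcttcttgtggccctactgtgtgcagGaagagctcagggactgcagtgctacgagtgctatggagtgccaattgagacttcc
Ly6a shared 83.7 percent of aligned coding bases with Ly6c1 and 83.5 percent with Ly6c2, and Ly6e shared 59.6 to 64.6 percent with the other members. Of all 75-base stretches in their coding transcripts, 19 percent for Ly6c1 and 20.7 percent for Ly6c2 also occurred in another gene. The share was 6.33 percent for Ly6a and 0 percent for Ly6e. With stretches of 50 bases it was 32.8 percent for Ly6c1, 31.2 for Ly6c2, 19 for Ly6a and 0 for Ly6e. With 100 bases it was 10.1, 14.9, 1.45 and 0 percent in the same order. Counts of Ly6c1, Ly6c2 and, to a smaller degree, Ly6a are therefore uncertain, since the sources used here do not say how the authors treated reads that match several genes.

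The RefSeq promoter table (GRCm38.p6) matched 2 of the 4 members, Ly6c1 and Ly6c2. The 250 bases before the start are shown for this pair because its coding sequences are nearly the same while its levels were far apart in these Tregs. The Ly6c1 stretch is chr15:75048838-75049087 and the Ly6c2 stretch chr15:75111972-75112221, both on the minus strand and printed 5′ to 3′. Capitals mark matches to the TATA box TATAAA, to the forkhead factor motif TAAACA and to the ETS factor motif GGAAGT, searched on both strands, as were all motifs named here.
Ly6c1 promoter: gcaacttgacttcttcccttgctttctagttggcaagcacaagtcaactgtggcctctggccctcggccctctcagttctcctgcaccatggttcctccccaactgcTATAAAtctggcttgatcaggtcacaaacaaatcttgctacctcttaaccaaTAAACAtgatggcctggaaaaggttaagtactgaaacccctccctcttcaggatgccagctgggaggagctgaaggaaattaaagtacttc
Ly6c2 promoter: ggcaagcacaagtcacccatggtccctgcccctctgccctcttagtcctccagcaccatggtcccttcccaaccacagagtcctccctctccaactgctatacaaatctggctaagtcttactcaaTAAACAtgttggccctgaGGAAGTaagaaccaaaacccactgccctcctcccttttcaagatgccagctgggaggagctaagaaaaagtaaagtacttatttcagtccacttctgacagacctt
Over the 300-base windows, which run 50 bases past the start, 208 of 266 aligned bases were identical (78.2 percent). The letters TATAAA occurred in the Ly6c1 window, with their first base at -143 from the start, but not in that of Ly6c2. At any position, they occurred in 13.6 percent of 32851 promoter windows. Whether they act as a TATA box was not tested. TAAACA occurred in the windows of both genes and in 13.4 percent of all windows. GGAAGT occurred 2 times in the Ly6c2 window, once past the printed stretch, and in 23.8 percent of all windows. Neither window held TTCNNNGAA, the gamma-activated site (8.3 percent of windows), or GAAANNGAA, a shortened core of the interferon-stimulated response element (8.56 percent). Both held the E-box CANNTG, as did 72.3 percent of windows.

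Libraries held 15714286 to 24332044 counts, and 18423 genes were tested. Levels are counts scaled to a common library total (CPM) with TMM factors, the trimmed mean of M-values. Foxp3 was present in every group, with group means of 205 to 287 CPM. Summed over 10 B cell markers, the level was 1138 to 2386 CPM in PEC libraries, 398 to 1171 in spleen and 42.9 to 89.4 in thymus. Summed over 10 monocyte and macrophage markers, it was 322 to 2077 CPM in PEC, 160.5 to 435 in spleen and 56.2 to 119 in thymus. Sums over 10 neutrophil markers were 0 to 45.1 CPM and over 10 endothelial markers 0.11 to 5.73 CPM, with 3 to 9 endothelial markers at 0 in each library. Over 6 plasma cell markers the sums were 79.1 to 281 CPM, and over 7 plasmacytoid dendritic cell markers 29.3 to 109 CPM. Both were highest in a PEC library and lowest in a thymus library. In bulk RNA, fewer cells with a transcript and less transcript per cell cannot be told apart.

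**Figure D1:**
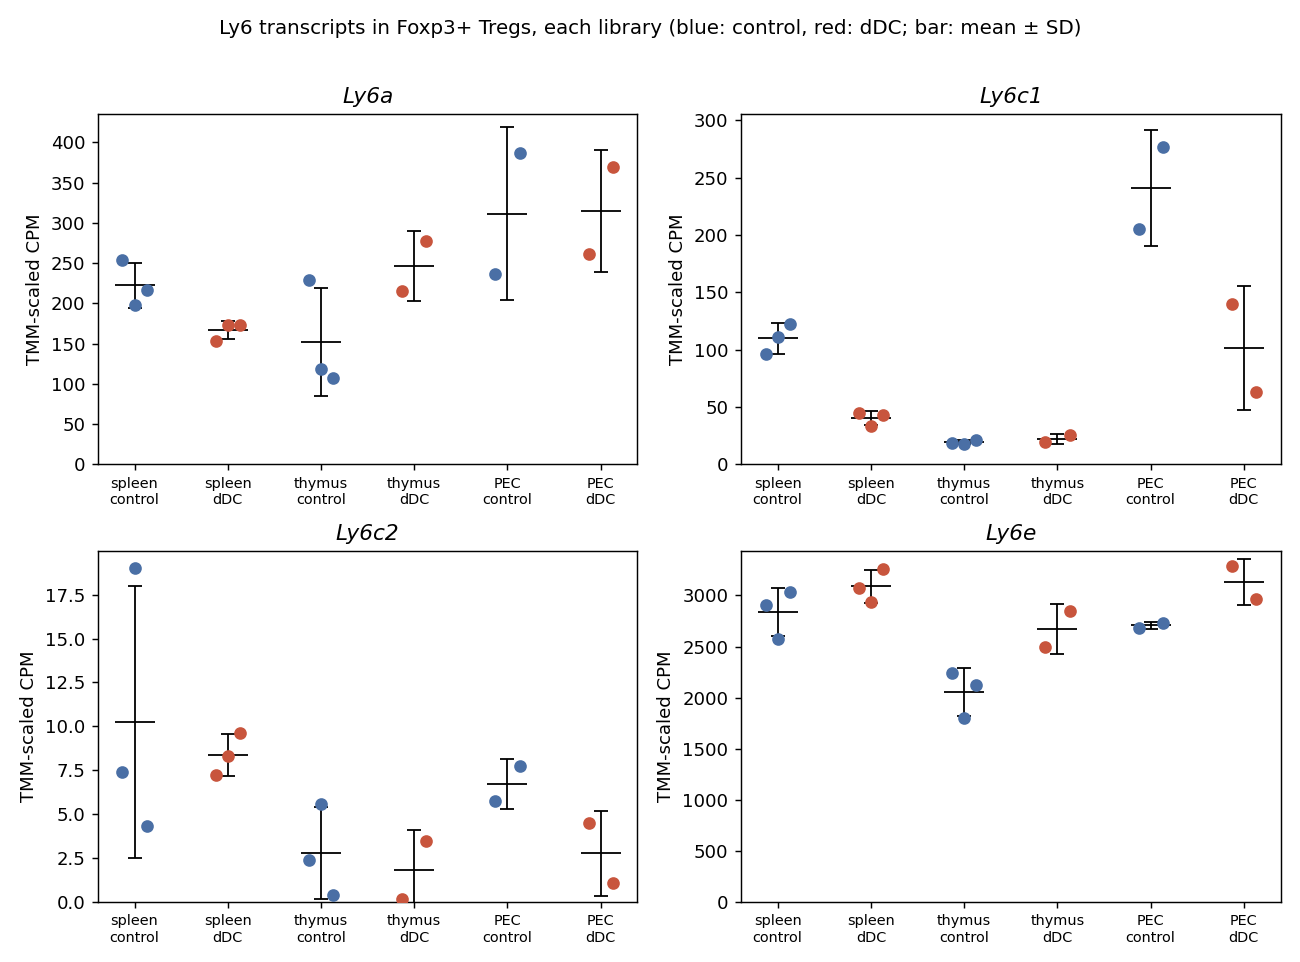
Level of each Ly6 gene in every library (TMM-scaled CPM; blue points control, red points dDC; bars mean and SD, cut at 0). Ly6c1 is highest in PEC controls, at 205 and 277 CPM, and lowest in thymus, while Ly6e lies between 1797 and 3290 CPM in every library.

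Levels can be compared between genes only per length. Per kilobase of exon, spleen controls had 749.5 CPM of Ly6e, 185 of Ly6a, 65.7 of Ly6c1 and 3.74 of Ly6c2. This order, Ly6e above Ly6a above Ly6c1 above Ly6c2, was the same in each of the 6 groups. With the length of the longest coding transcript in place of the exon length, the spleen control values were 1243, 232.8, 130.5 and 12.47 CPM per kilobase, in the same order. Ly6c2 is the member whose value depends most on the length, since its deposited length counts a retained-intron transcript.

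Among control libraries, Ly6c1 was the member with the largest fitted differences between tissues. In spleen controls it stood at 96.0, 112 and 123 CPM (110 ± 13.4, SD, n = 3). In thymus controls it stood at 19.1, 17.6 and 21.4 CPM (19.4 ± 1.95, n = 3). The 2 PEC controls had 205 and 277 CPM (241 ± 50.7, n = 2). The 3 control groups did not overlap, with thymus lowest and PEC highest. By edgeR's quasi-likelihood test with Benjamini-Hochberg adjustment, Ly6c1 was 5.69-fold lower in thymus than in spleen (log2 -2.51, SE 0.27, adjusted p = 0.00156). It was the only 1 of the 4 members past the threshold of 0.05 in this comparison, where 0.603 percent of all genes were called. Ly6c1 was 12.4-fold higher in PEC than in thymus (3.64, SE 0.30, adjusted p = 0.00012), again as the only member, against 2.47 percent of genes. The difference between PEC and spleen controls was 1.13 (SE 0.28) and did not pass (adjusted p = 0.118), in a comparison that called 0.792 percent of genes and none of the members. Without the first or the second PEC dDC library, neither of them in the 2 groups compared, that adjusted p was 0.0435 or 0.0411.

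Among dDC libraries the same order of tissues was seen for Ly6c1. The 3 spleen libraries had 44.8, 33.9 and 43.3 CPM (40.7 ± 5.92, n = 3), the 2 thymus libraries 19.4 and 25.7 CPM (22.6 ± 4.41, n = 2) and the 2 PEC libraries 139 and 63.6 CPM (102 ± 53.7, n = 2). The groups again did not overlap, but the 2 PEC libraries were more than 2-fold apart. PEC exceeded thymus 4.50-fold (log2 2.17, SE 0.33, edgeR adjusted p = 0.00742), the only member called, where 1.35 percent of genes were. This call was lost without the first thymus dDC library (1.98, adjusted p = 0.102) and in a fit to dDC libraries alone (2.17, adjusted p = 0.0815). PEC against spleen (1.32, SE 0.29, adjusted p = 0.0615; 0.906 percent of genes called) and thymus against spleen (-0.85, SE 0.30, adjusted p = 0.542; 0.179 percent) did not pass for Ly6c1, and no other member passed in either. B cell and monocyte marker sums, given above, were also lowest in thymus and highest in PEC, and their part in the Ly6c1 differences was not tested.

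**Figure D2:**
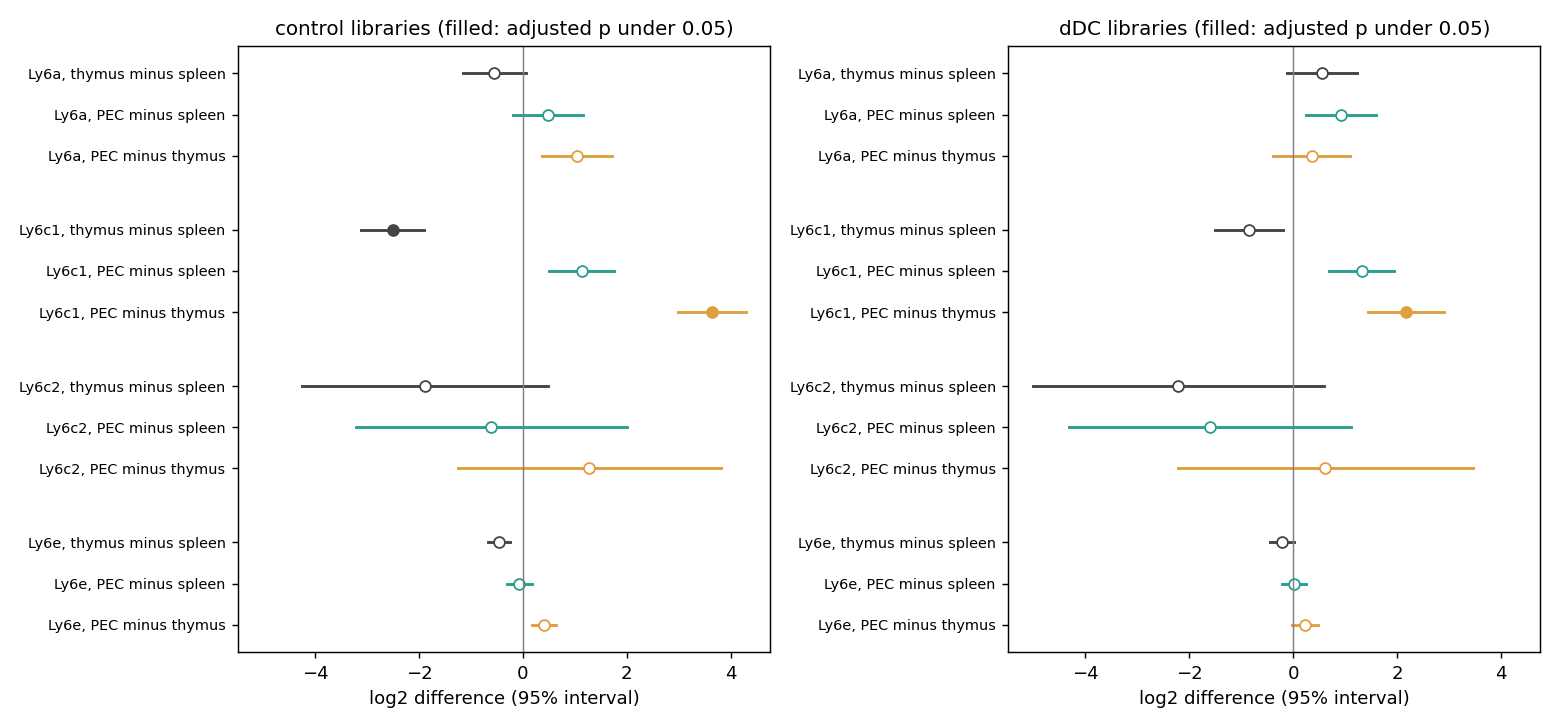
Differences between tissues for each member (log2, point estimate and 95% interval from edgeR; left control libraries, right dDC libraries; filled points have an adjusted p under 0.05). The 3 filled points are all Ly6c1, at -2.51 and 3.64 in controls and 2.17 in dDC.

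Ly6c1 was also the member with the largest difference between dDC and control in spleen, although no member passed the threshold there. The 3 spleen dDC libraries (44.8, 33.9 and 43.3 CPM) all lay below the 3 controls (96.0, 112 and 123 CPM). The fitted difference was -1.44 (SE 0.26, 95% interval -2.01 to -0.86), or 2.71-fold lower, with an unadjusted p of 0.00016 and an edgeR adjusted p of 0.59. DESeq2 gave -1.44 with an adjusted p of 0.000206. Of the 4 members, 0 were called by edgeR, as were 0 percent of all genes. Ranges of dDC and control libraries were separate for 2 of the 4 members, Ly6c1 and Ly6a, both lower, against 10.1 percent of all genes.

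In PEC, the Ly6c1 levels of 139 and 63.6 CPM in dDC lay below the 205 and 277 CPM of controls. The difference was -1.25 (SE 0.32, 95% interval -1.95 to -0.55), or 2.37-fold lower, and did not pass by edgeR (adjusted p = 0.412) but passed by DESeq2 (-1.27, adjusted p = 0.0141). Again 0 of the 4 members were called by edgeR, and 0.00543 percent of genes. Ranges were separate for 3 of the 4 members, Ly6c1 and Ly6c2 lower and Ly6e higher, in a comparison of 2 libraries with 2 where 34.1 percent of all genes had separate ranges. The monocyte and macrophage sum was 322 and 2077 CPM in PEC controls and 815 and 755 CPM in dDC, and the B cell sum 1138 and 2214 against 1371 and 2386 CPM. The control and dDC ranges of both sums overlapped.

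In thymus, Ly6c1 was low in both genotypes. The 2 dDC libraries (19.4 and 25.7 CPM) and the 3 controls (17.6 to 21.4 CPM) overlapped, and the difference was 0.22 (SE 0.29, 95% interval -0.42 to 0.86, edgeR adjusted p = 0.953). No member passed there, and 0 percent of genes did. Ranges were separate for 1 of the 4 members, Ly6e, against 19.4 percent of genes.

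Averaged over the 3 tissues with equal weight, the Ly6c1 difference was -0.82 (SE 0.17, edgeR adjusted p = 0.147), with 5 of 7 dDC libraries under the mean of the matching controls. Without the first PEC dDC library its adjusted p was 0.0279 and the value -1.05, and DESeq2 gave -0.83 with an adjusted p of 0.00047. None of the members was called in the average by edgeR, where 0.076 percent of genes were. At an unadjusted p under 0.05, edgeR had 1 of the 4 members in spleen, 2 in thymus, 1 in PEC and 2 in the average. Of all 18423 genes, 786, 1211, 1171 and 1715 had such a p in these comparisons. DESeq2 called 1, 0, 1 and 2 members in these comparisons after adjustment, and limma 0 in each. Over all genes, DESeq2 called 48, 187, 226 and 428 of 32425, and limma 0, 0, 10 and 22 of 18423. The dDC differences themselves were compared between tissues. For Ly6c1 the thymus difference exceeded that of spleen by 1.66 (SE 0.39, unadjusted p 0.00116, edgeR adjusted p = 0.965; DESeq2 adjusted p = 0.0254). PEC and thymus differed by -1.47 (adjusted p = 0.84) and PEC and spleen by 0.19 (95% interval -0.70 to 1.08, adjusted p above 0.99). No gene passed in any of these 3 comparisons by edgeR (0 percent called), where 900 to 1053 genes had an unadjusted p under 0.05. DESeq2 called 51 of 32425 genes between the thymus and spleen differences.

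**Figure D3:**
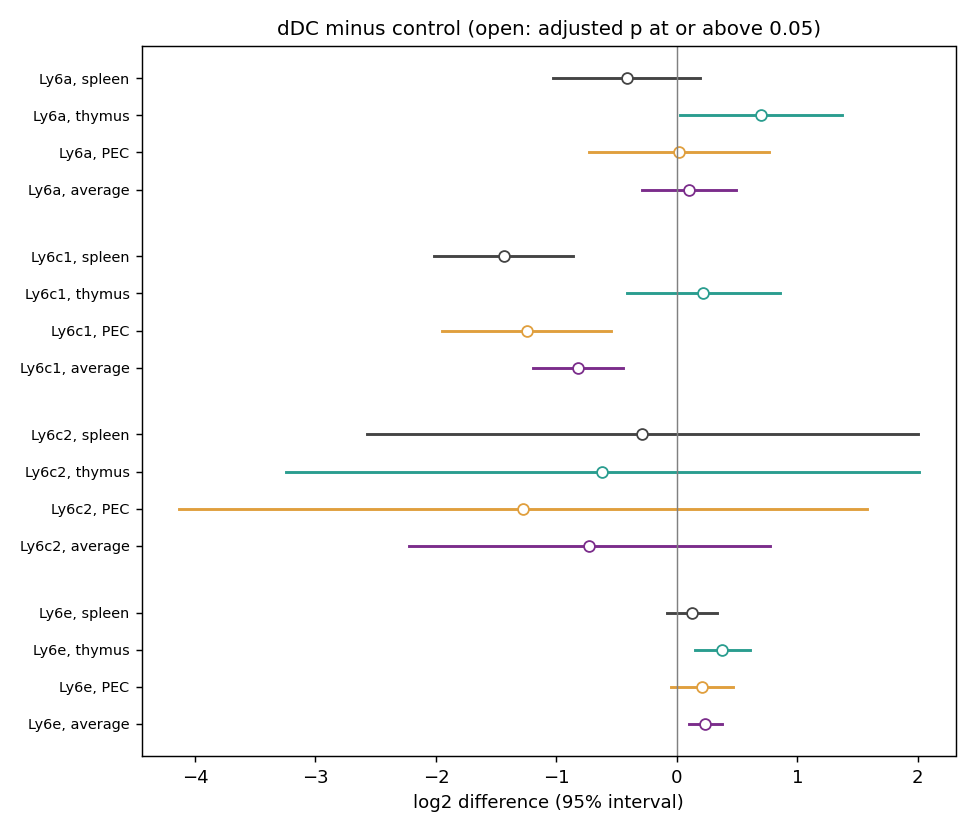
Difference between dDC and control for each member in spleen, thymus, PEC and their average (log2, point estimate and 95% interval from edgeR; all points are open because no adjusted p is under 0.05). The Ly6c1 intervals lie below 0 in spleen, PEC and the average and include 0 in thymus, where the estimate is 0.22.

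Ly6c2, the near-identical partner of Ly6c1, was the weakest member and the most variable. Spleen controls had 7.42, 19.01 and 4.33 CPM (10.3 ± 7.74, n = 3) and spleen dDC libraries 7.21, 8.33 and 9.61 CPM (8.38 ± 1.20, n = 3), so the dDC values lay inside the control range. Thymus controls had 2.35, 5.56 and 0.402 CPM and thymus dDC libraries 0.164 and 3.44 CPM, which overlapped as well. In PEC the 2 controls (5.72 and 7.73 CPM) lay above the 2 dDC libraries (4.48 and 1.06 CPM). The differences between dDC and control were -0.29 in spleen, -0.62 in thymus, -1.28 in PEC and -0.73 on average, with SEs of 0.69 to 1.31 and edgeR adjusted p-values of 0.842 or more. With these errors, a difference of the size seen for Ly6c1 could not be resolved. Between tissues, the thymus control value was -1.88 against spleen (SE 1.08, adjusted p = 0.627), and no Ly6c2 comparison passed.

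Since reads can fall to either copy, the share of Ly6c2 in the summed Ly6c1 and Ly6c2 reads was taken in each library. In spleen controls it was 7.17, 14.6 and 3.41 percent, and in spleen dDC libraries 13.9, 19.7 and 18.2 percent. Thymus controls had 10.97, 24.1 and 1.84 percent and thymus dDC libraries 0.838 and 11.8 percent. PEC controls had 2.71 percent in both libraries and PEC dDC libraries 3.11 and 1.63 percent. The spleen and thymus shares varied from library to library by more than their counting error, and the PEC shares were uniformly low. Between dDC and control, the mean share differed by 8.87 percentage points in spleen, -5.97 in thymus and -0.34 in PEC, with overlapping libraries in each tissue, and these single differences were not tested. Their mean was 0.852 percentage points (two-sided exact test permuting genotypes inside each tissue, p = 0.86 over 1200 relabellings, smallest possible p 0.000833). With both genes summed before the test, the 3 tissue calls of Ly6c1 remained (-2.44 and 3.48 in controls, 2.10 in dDC), and the spleen and PEC differences between dDC and control were -1.29 (edgeR adjusted p = 0.823) and -1.25 (adjusted p = 0.412).

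**Figure D4:**
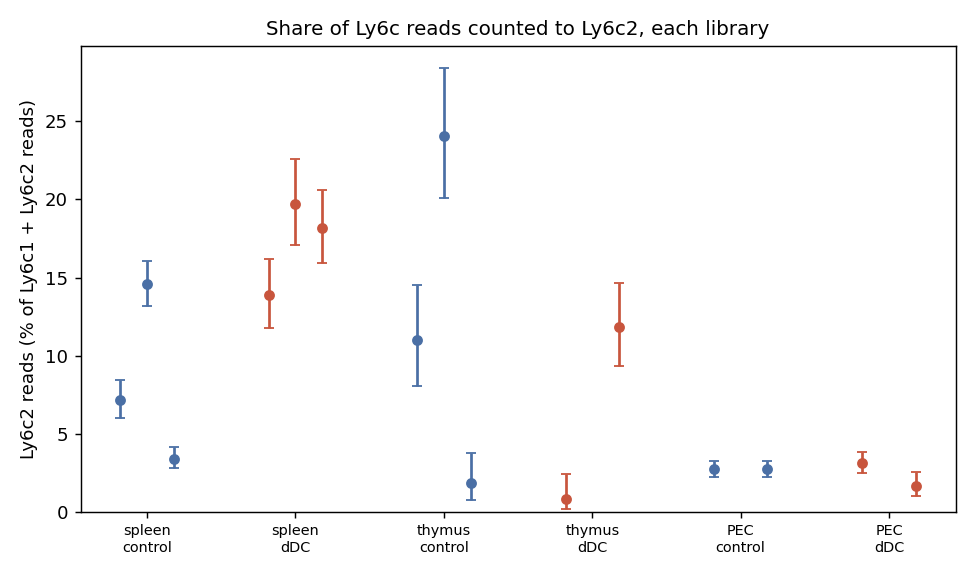
Percentage of Ly6c1 and Ly6c2 reads that were counted to Ly6c2 in each library (blue control, red dDC; bars exact 95% binomial intervals, which cover counting error only). Shares in the 4 PEC libraries lie between 1.63 and 3.11 percent, and in thymus controls between 1.84 and 24.1 percent.

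Ly6a, the Sca-1 gene, was expressed at 108 to 387 CPM in all libraries, with no comparison past the threshold by edgeR on all libraries. DESeq2 called the difference between PEC and thymus controls (1.05, adjusted p = 0.0218), as did edgeR without the first thymus control (1.47, adjusted p = 0.0157). In that comparison DESeq2 called 1502 of 32425 genes, and edgeR without that library 269 of 18255. Spleen controls had 253, 197 and 216 CPM (222 ± 28.4, n = 3) and spleen dDC libraries 154, 173 and 173 CPM (166 ± 11.2, n = 3), all 3 below the controls. That difference was -0.42 (SE 0.28, 95% interval -1.03 to 0.19, edgeR adjusted p = 1). In thymus, Ly6a controls had 229.6, 118 and 108 CPM and dDC libraries 215 and 277 CPM, which overlapped through the first control, and the difference was 0.70 (SE 0.31, unadjusted p 0.0433, adjusted p = 0.748). In PEC, controls had 236 and 387 CPM and dDC libraries 262 and 369 CPM, with a difference of 0.02 (95% interval -0.73 to 0.76). The test between the thymus and spleen differences gave 1.11 (SE 0.42, unadjusted p 0.0204, edgeR adjusted p = 0.965).

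Between control tissues, Ly6a was 1.04 higher on the log2 scale in PEC than in thymus (SE 0.31, edgeR adjusted p = 0.121), which did not pass. The groups were separate, but the highest thymus library (229.6 CPM) was just under the lowest PEC library (236 CPM). Without that thymus library the value was 1.47 with an adjusted p of 0.0157. In dDC libraries Ly6a stood highest in PEC (315 ± 75.7 CPM, n = 2), then in thymus (246 ± 43.8, n = 2), and lowest in spleen (166 ± 11.2, n = 3), with PEC against spleen at 0.92 (SE 0.31, adjusted p = 0.329).

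Ly6e was by far the most abundant member and the steadiest. Spleen controls had 2902, 2574 and 3032 CPM (2836 ± 236, n = 3) and spleen dDC libraries 3072, 2941 and 3257 CPM (3090 ± 159, n = 3), which overlapped. Thymus controls had 2243, 1797 and 2124 CPM (2054 ± 231, n = 3) and thymus dDC libraries 2495 and 2846 CPM (2670.5 ± 248, n = 2), which did not overlap. PEC controls had 2683 and 2734 CPM and PEC dDC libraries 3290 and 2969 CPM, again separate. Each of the 7 dDC libraries exceeded the mean of the controls from its tissue. The same count was 3 of 7 for Ly6a, 2 of 7 for Ly6c1 and 1 of 7 for Ly6c2, and it was not made over all genes. The Ly6e differences were 0.12 in spleen (SE 0.10), 0.38 in thymus (SE 0.11, unadjusted p 0.004, edgeR adjusted p = 0.746) and 0.21 in PEC (SE 0.12). Their average was 0.24 (SE 0.06, 95% interval 0.10 to 0.37, 1.18-fold), with an adjusted p of 0.236 by edgeR and 0.0409 by DESeq2.

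Thymus controls were the lowest group for Ly6e. They lay 0.47 below spleen controls on the log2 scale (SE 0.10, edgeR adjusted p = 0.0616; limma 0.0343; DESeq2 0.00124) and 0.40 below PEC controls (SE 0.11, edgeR adjusted p = 0.08; DESeq2 0.0117). Neither passed by edgeR. PEC and spleen controls were 0.07 apart (95% interval of PEC minus spleen -0.30 to 0.17). For Ly6e all 3 control groups lay within 1.38-fold of each other, whereas for Ly6c1 they spanned 12.4-fold. In dDC libraries the Ly6e differences between tissues were 0.23 or less in size.

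For Ly6c1, neighbouring groups in the order of levels were PEC control, spleen control, PEC dDC, spleen dDC, thymus dDC and thymus control. Of the 4 neighbouring pairs that share a genotype or a tissue, none passed by edgeR, so the calls lie between groups further apart in the order. The groups of Ly6a, Ly6c2 and Ly6e had no tested pair past the threshold by edgeR on all libraries. DESeq2 called Ly6e between thymus and spleen controls (adjusted p = 0.00124) and between PEC and thymus controls (adjusted p = 0.0117), and limma called the first of these (adjusted p = 0.0343). Over all genes, DESeq2 called 660 of 32425 in the first comparison and 1502 in the second. Limma called 123 of 18423 in the first.

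The other genes of the family were mostly silent in Tregs. Of 37 further Ly6 and uPAR family genes listed, 35 were found in the table and 14 passed the filter on low counts, and these 14 passed in part through single groups. In the 4 comparisons of dDC with control, 0 of the 14 passed by edgeR (1, 0, 1 and 0 at an unadjusted p under 0.05), with medians of -0.06 in spleen, 0.19 in thymus, -0.01 in PEC and 0.15 on average, beside -0.01, -0.03, 0.00 and -0.02 over all genes. Such an unadjusted p was reached by 786, 1211, 1171 and 1715 of all 18423 genes. Between tissues 1 of the 14 genes passed, Ly6d, which marks early B cell progenitors. Control levels of Ly6d were 181 ± 27.1 CPM for PEC, 55.0 ± 23.5 for spleen and 6.46 ± 3.77 for thymus. It was lower in thymus than in spleen (-3.09, SE 0.56, edgeR adjusted p = 0.0294) and higher in PEC than in thymus in controls (4.81, adjusted p = 0.00153) and in dDC (4.51, adjusted p = 0.00995). In these comparisons, 0.603, 2.47 and 1.35 percent of all genes were called by edgeR, in the order given. The B cell marker sums have the same order of tissues, and their part in the Ly6d differences was not tested.

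Among the remaining family genes, Plaur, the urokinase receptor, stood at 30.7 ± 8.04 CPM in PEC controls and 7.05 ± 1.03 in spleen controls (2.12, SE 0.68, edgeR adjusted p = 0.253). Ly6k stood at 3.93 ± 1.43 CPM in PEC controls and 12.2 ± 8.43 in those of spleen (-1.63, SE 0.70, adjusted p = 0.434). Ly6i, which shares stretches of 75 bases with Ly6a and of 50 bases with Ly6c1, stayed at 8.28 CPM or less. Cd59b, a complement inhibitor, was at 0.884 to 1.47 CPM in the 3 spleen controls and at 0 in the 3 spleen dDC libraries, at least 7.54-fold lower against a floor of 3 counts per library (adjusted p = 1). In PEC it was at 0 in both controls against 0.566 and 0.611 CPM in the dDC pair, at least 3.50-fold above that floor (adjusted p = 0.637). Group means of Lynx1, Cd59a, Ly6g5b, Ly6g6c, Lypd3, Lypd6b, Spaca4, Cd177 and Gml were all at 4.15 CPM or less. The neutrophil antigen gene Ly6g, below the filter, did not exceed 0.763 CPM in any library.

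Other GPI-anchored proteins of T cells and the enzymes that make the anchor were examined beside the members. Of 11 tested genes for GPI-anchored surface proteins, 0 passed between dDC and control by edgeR in any of the 4 comparisons (1, 1, 1 and 4 at an unadjusted p under 0.05). Such an unadjusted p was reached by 786 of all 18423 genes in spleen, 1211 in thymus, 1171 in PEC and 1715 in the average. The median of the 11 was 0.22 on average over tissues, beside -0.02 over all genes. The 2 with the smallest p were Cd48, an adhesion molecule for CD2-family receptors (0.26, SE 0.08, edgeR adjusted p = 0.312), and Cd160 (-1.47, SE 0.49, adjusted p = 0.369). Between control tissues, Cd52 was lower in PEC than in spleen (-1.08, SE 0.13, adjusted p = 0.0031), as was Izumo1r, the folate receptor-like FR4 of Tregs (-1.79, SE 0.20, adjusted p = 0.00235). Art2b, an ADP-ribosyltransferase, was lower in thymus than in spleen (-2.20, SE 0.33, adjusted p = 0.0105), as was Ly6c1. Of 28 tested genes for GPI anchor synthesis, 0 passed by edgeR between dDC and control (2, 1, 0 and 1 at an unadjusted p under 0.05) and 0 between control tissues (2 or 3). Their medians lay between -0.10 and 0.16 in those comparisons. Between control tissues, 1804 to 2589 of all 18423 genes had an unadjusted p under 0.05.

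Interferon receptors, their signalling and their target genes were examined because Ly6 genes are known to respond to interferons. Of 25 interferon-stimulated genes tested, 0 passed by edgeR between dDC and control (0, 2, 4 and 2 at an unadjusted p under 0.05), with medians of -0.05 in spleen, 0.29 in thymus, 0.20 in PEC and 0.22 on average. Such an unadjusted p was reached by 786, 1211, 1171 and 1715 of all 18423 genes. In thymus the 2 of the 25 with the smallest p were the ubiquitin-like Isg15 (0.81, SE 0.35, edgeR adjusted p = 0.748) and the GTPase gene Gbp3 (0.52, SE 0.23, adjusted p = 0.748). In controls, 12 of the 25 were lower and 1 was higher in PEC than in thymus (median -1.93), where 2.47 percent of all genes were called in either direction. Against spleen, 5 were lower and 0 higher in PEC (median -1.73), where 0.792 percent of all genes were called. The median over all genes was -0.03 in both comparisons. Ifit3, an antiviral effector, stood at 81.1 ± 15.9 CPM in thymus, 34.7 ± 11.2 in spleen and 4.46 ± 0.50 in PEC (-4.18 and -2.96, adjusted p = 0.00027 and 0.0051). Of 12 genes for interferon receptors and signalling, 1 was higher and 2 were lower in PEC than in spleen controls (median -0.05), and 1 was higher and 3 were lower in PEC than in thymus controls (median -0.41). Ifngr1, the interferon-gamma receptor chain, was the 1 higher in PEC than in spleen (2.72, edgeR adjusted p = 0.000192). PEC controls were the group with the highest Ly6c1 and Ly6a levels among controls. There the median difference of the 25 interferon-stimulated genes was below 0 against both other tissues. Ly6e in PEC controls was near its spleen level (-0.07, interval -0.30 to 0.17). Against thymus controls it was higher by 0.40 with separate ranges (SE 0.11, edgeR adjusted p = 0.08), which did not pass. A part of interferon in the levels of the members was not tested.

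Genes of resting and of activated Tregs were examined because Ly6C is known from less activated Tregs. Of 15 resting genes, 0 passed between dDC and control in spleen, thymus or PEC by edgeR (6, 2 and 9 at an unadjusted p under 0.05), and 1 passed in the average, Bcl2, a survival factor (-1.03, SE 0.16, edgeR adjusted p = 0.0467). Their medians were -0.43 in spleen, -0.24 in thymus, -0.82 in PEC and -0.52 on average, against -0.02 over all genes for the average. In spleen Bcl2 stood at 301 ± 90.5 CPM in controls and 137 ± 9.86 in dDC (-1.14, adjusted p = 0.823), and in PEC Satb1, a chromatin organiser, at 231 ± 98.3 and 58.8 ± 36.2 CPM (-1.97, adjusted p = 0.222). Of 20 activated genes, 0 passed by edgeR (3, 5, 13 and 13 at an unadjusted p under 0.05), with medians of 0.15, 0.43, 0.95 and 0.48. For both lists, the numbers of all 18423 genes at such an unadjusted p were 786 in spleen, 1211 in thymus, 1171 in PEC and 1715 in the average. The smallest p-values in PEC were those of Tnfrsf4, the costimulatory receptor OX40 (1.10, SE 0.17, adjusted p = 0.104), and Ccr8, a chemokine receptor (4.53, SE 0.72, adjusted p = 0.104). On average they were those of Ebi3, a cytokine subunit (1.24, adjusted p = 0.0639), and Klrg1, a surface receptor of differentiated Tregs (0.97, adjusted p = 0.0875). The 2 tissues in which the Ly6c1 ranges of dDC lay below control, spleen and PEC, were those with the lower resting medians. Of the 15 resting genes, 2 had a difference above 0 in spleen, 1 in thymus and 3 in PEC. A link between the resting genes and Ly6c1 was not tested. The comparisons of both lists share their libraries with those of Ly6c1, and the resting and activated lists were chosen with earlier results of these data known.

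**Figure D5:**
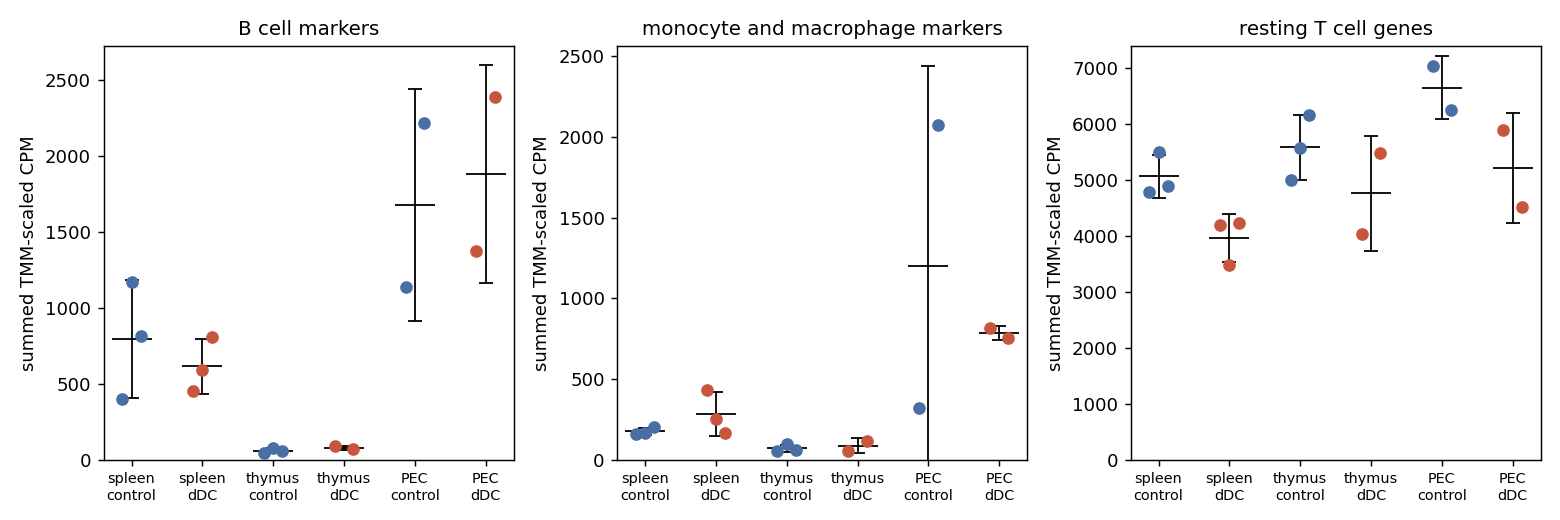
Summed level of 10 B cell markers, 10 monocyte and macrophage markers and 15 resting T cell genes in each library (TMM-scaled CPM; blue control, red dDC; bars mean and SD, cut at 0). B cell markers run from 42.9 CPM in thymus to 2386 in PEC, and the 3 spleen dDC libraries have the lower resting sums of the 6 spleen libraries.

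The genes whose profile over the 15 libraries was most like that of each member were named by the root mean square distance of centred log2 CPM among 8256 genes with a mean of at least 10 CPM. For Ly6c1 they were Usp28, a deubiquitinase, at 0.70, the glycosyltransferase gene B3gnt5 at 0.74 and the transcription factor gene Klf3 at 0.75, where Ly6c1 itself varied with an SD of 1.29 and the median gene lay at 1.36. Among controls, Usp28 had 77.8 ± 19.8 CPM in spleen, 27.2 ± 4.08 in thymus and 125 ± 9.96 in PEC, the order seen for Ly6c1. Klf3 followed the tissues but not the dDC libraries, with 505 ± 20.7 CPM in PEC controls and 534 ± 33.6 in PEC dDC. For Ly6e the nearest were Laptm5 at 0.10, Cd48 at 0.11 and Taldo1 at 0.11, against an SD of 0.23 and a median distance of 0.49. For Ly6a they were Nipal3 at 0.29, Rrm2b at 0.30 and Timm9 at 0.30 (SD 0.50, median 0.67), and for Ly6c2 Trim37 at 0.84, Prdm4 at 0.88 and Ctc1 at 0.97 (SD 1.61, median 1.67).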

How the data were processed

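RNA of sorted Foxp3-positive Tregs was made into cDNA from a poly-dT primer with template switching (12 cycles) and into Illumina libraries (15 cycles), per the labels' protocols, which name no molecular identifiers, so the exact binomial intervals of the Ly6c2 share and the floors of 3 counts cover counting error only. Reads were handled with bcl2fastq 2.19.1, aligned with GSNAP and counted with featureCounts 1.6.0 on build mm10, per the submitters' processing notes. For strand setting, read length and reads matching several genes, the choice is not given in the sources used here.

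Raw counts, as whole reads of each gene in each library, were deposited by the authors with Ensembl identifiers and coordinates. Of 45798 features, 92 are spike-ins with at most 6 reads in a library and were left out. Symbols from a GENCODE name table matched 45143 of 45706 genes. Libraries were grouped by the cell type label. The filter filterByExpr in edgeR 4.0.16 (R 4.3.3) kept 18423 genes with 99.9 percent of counts. A robust quasi-likelihood model with TMM scaling and a mean for each of 6 groups was fitted to all 15 libraries (9 residual degrees of freedom), with two-sided tests and Benjamini-Hochberg adjustment over all 18423 genes at 0.05. The median biological coefficient of variation was 0.55. Alternatives were DESeq2 1.42.0 (fitted without the filter), limma 3.58.1 (voom), other size factors, no filter, fits to 1 tissue or genotype, each library left out, a block of neighbouring library numbers, both Ly6c genes summed, and, added after seeing the data, other transcript lengths and averages of 2 tissues. They were run for the 4 members and not for the genes of the lists.

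Intervals around log2 differences are at 95 percent, from the edgeR fit, and include the spread between libraries. The share of Ly6c2 reads was tested by exact permutation. Coding sequences and shared stretches came from GENCODE M21 coding transcripts, and promoter windows from RefSeq, where of 2 windows per gene the one with its start nearest the gene's 5′ end in the table was used. The edgeR script was tested on simulated counts. Named genes were the 4 members, tested family genes, for other lists up to 4 past the threshold or the 2 with the smallest p in a dDC comparison and up to 3 in a tissue comparison, and the 3 most alike in profile. The members and lists were chosen with earlier results of these data known. A gene of the interferon list that the naming rule selects is not reported here.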

Additional observations from a re-analysis of the deposited data

How the results depend on the processing

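Of the results for the 4 members under alternatives other than leaving out a library, 275 kept direction and side of the threshold, 5 reversed, 12 passed newly and 1 no longer passed. With single libraries left out, 756 kept both, 18 reversed, 5 passed newly and 1 no longer passed. The reversals concern values near 0 or Ly6c2. The difference of Ly6a between dDC and control in PEC became -0.0061 with DESeq2's size factors, -0.0038 with DESeq2 and -0.0051 with PEC libraries alone, that of Ly6c2 in spleen 0.058 with limma, and the Ly6a average -0.20 without thymus. The 3 tissue calls of Ly6c1 held in all alternatives run, except the dDC call between PEC and thymus. That call was lost with dDC libraries alone (2.17, edgeR adjusted p = 0.0815) and without the first thymus dDC library (1.98).

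DESeq2 newly called Ly6c1 between dDC and control in spleen (-1.44), PEC (-1.27) and the average (-0.83), the Ly6c1 difference between thymus and spleen effects (1.66), and Ly6c1 between PEC and spleen (1.15 in controls, 1.32 in dDC). It also called the Ly6e average (0.23), Ly6e in control thymus against spleen (-0.46) and PEC against thymus (0.41), and Ly6a in control PEC against thymus (1.05). Limma newly called Ly6e in control thymus against spleen (-0.48), and edgeR without the filter Ly6c1 in dDC PEC against spleen (1.31). DESeq2 called more of all genes too, 48 against 0 by edgeR in spleen and 428 against 14 in the average. Between control tissues it called 660 against 111 (thymus and spleen), 842 against 146 (PEC and spleen) and 1502 against 455 (PEC and thymus). For PEC and spleen in dDC it called 647 against 167, and between the thymus and spleen effects 51 against 0. The cause was not tested.

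Leaving out each library in turn gave these ranges. For dDC against control, they were -0.66 to 0.51 for Ly6c2 in spleen, -4.01 to 0.40 for Ly6c2 in thymus, -0.30 to 0.42 for Ly6a in PEC, -0.0036 to 0.24 for the Ly6a average and -1.05 to -0.67 for the Ly6c1 average. Between tissue effects, they were -3.73 to 0.68 for Ly6c2 (thymus minus spleen), -2.05 to 2.72 for Ly6c2 (PEC minus thymus) and -0.49 to 0.65 for Ly6c1 (PEC minus spleen). Between control tissues, they were -0.97 to 0.20 for Ly6c2 and 0.90 to 1.33 for Ly6c1 (PEC minus spleen) and 0.64 to 1.47 for Ly6a (PEC minus thymus). Between dDC tissues, they were -0.77 to 4.01 for Ly6c2 and 1.49 to 2.63 for Ly6c1 (PEC minus thymus), -0.062 to 0.092 for Ly6e and 0.64 to 1.78 for Ly6c1 (PEC minus spleen). The mean difference in the Ly6c2 share ranged from -0.975 to 2.81 percentage points.

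Library numbers of control and dDC samples are neighbours in the labels, except number 13, the second thymus control, which was left without a partner. The labels do not say that neighbours mark pairs. Deviations of neighbours from their group means correlated at -0.0054 to 0.102. Both PEC pairs had the same value, 0.102, since deviations in a group of 2 mirror each other. With a replicate block of these neighbours, Ly6c1 was -1.44 in spleen (adjusted p = 1) and -0.88 on average (adjusted p = 0.514), and edgeR called 0 genes in the average against 14 without it. The fit with blocks had fewer residual degrees of freedom than the main fit, and library number 13 added nothing to its thymus difference. Depth limits mainly Ly6c2, with 3 to 337 reads in a library.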
